A study of Homo sapiens with 2 samples.

Results

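Fibrillins, latent TGF-beta binding proteins (LTBPs) and the proteins that coat or link microfibrils were followed as a set of 10 genes, of 18417 genes measured, in the human fibrosarcoma line HT1080. The set was a list of genes named by their protein family, drawn up when earlier results of these arrays were known: the fibrillins FBN1 and FBN2, the LTBP genes LTBP1, LTBP2, LTBP3 and LTBP4, the microfibril-associated glycoproteins MFAP2 and MFAP5, and the fibulins FBLN5 and EFEMP2. All 10 were found, each by 1 sequence of the array that carries its symbol alone. There was 1 array of cells kept for 24 h on a coating of rLCC111 and 1 array of cells kept for 24 h on a coating of bovine serum albumin (BSA), both from the same line in medium with fetal calf serum. rLCC111 is a recombinant heterotrimer of the coiled-coil region of mouse laminin alpha-1, beta-1 and gamma-1 chains that was secreted by a transfected human cell line, so BSA stands for a coating without laminin and not for the same protein preparation without the fragment. The comparison asked how contact with the fragment moves the transcripts of these cells. With 1 array per coating there was no replicate check of any difference and no test could be made.

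Microfibrils are thin, beaded filaments of the extracellular matrix. Fibrillins form their backbone, and LTBPs, small glycoproteins and fibulins bind along them. In elastic tissues microfibrils serve as the scaffold on which elastin is laid down, and in all tissues they hold TGF-beta and BMP growth factors in a latent form near the cell. Mutations of FBN1 cause Marfan syndrome, in which both the mechanical and the growth factor role are disturbed. Fibroblasts and other mesenchymal cells are the main producers of these proteins.

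Values are log2 expression levels as the authors computed them, and a difference is the rLCC111 value less the BSA value on this scale. The array medians over 33297 sequences were 7.12 on rLCC111 and 7.04 on BSA, and the median difference over all genes was 0.00. The levels of 1325 genes (7.19%) were identical on the 2 arrays to the last digit deposited, and none of the 10 microfibril genes was among them. A level was called dim when it was at or below 6.61, below which lay the mean levels of 95% of 399 olfactory, taste, vomeronasal and trace amine receptor genes, a class with hardly any mRNA outside sensory cells. The differences of these receptor genes had an SD of 0.18, and their middle 95% ran between -0.22 and 0.55. Their full range was -0.43 to 1.53. Of the 399, 10 were at least 1.5-fold different and 2 at least 2-fold. Because most of these genes were dim, their spread need not hold for brighter genes, and it is not a replicate error. Among marker genes of mesenchymal cells, VIM (12.98 on rLCC111 and 13.05 on BSA), CD44 and ENG were above this limit and NT5E, S100A4 and THY1 were not. Of 5 epithelial markers only KRT14, at 7.54 on both arrays, was above it, none of the 4 endothelial markers and none of the 3 blood cell markers measured was, and of 3 smooth muscle markers DES and CNN1 were.

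Of the 10 microfibril genes, 7 had a higher level on rLCC111, the dim MFAP5 included, and 3 a lower one. FBN1 was the only member at least 2-fold higher, LTBP3 and LTBP1 were more than 1.5-fold higher, and MFAP2 was more than 1.5-fold lower. LTBP4 and EFEMP2 had folds of 1.37 and 1.32, LTBP2, FBN2 and FBLN5 had folds between 0.900 and 1.14, and MFAP5 was dim on both arrays. In all, 1 of 10 members was at least 2-fold higher, against 0.239% of all genes, and none was at least 2-fold lower, against 0.0869%. At 1.5-fold, 3 members were higher, against 1.08% of all genes, and 1 was lower, against 0.543%. A difference above 0 was seen in 7 of the 10 members, or in 6 of the 9 that were not dim on both arrays, and in 46.2% of all genes. After median centring these were 6 of the 10 members and 26.4% of all genes, and after quantile normalization 6 of the 10 members and 34.1% of all genes. The median difference was 0.30 over the 10 members and 0.41 over the 9 with a brighter array above the limit. Of the 10 members, 4 lay outside the middle 95% of the receptor genes: FBN1, LTBP1, LTBP3 and MFAP2. FBN1, at 1.23, was still below the highest receptor difference of 1.53, and MFAP2, at -0.62, was below the lowest of -0.43. The difference of FBN1 was known from an earlier analysis of these same arrays when the set was drawn up, so these counts describe the 2 arrays and are not independent evidence of a direction. The background split depends on the scaling of the arrays: as deposited 44 genes were higher by 2-fold or more and 16 lower (73.3% higher), after median centring 37 and 25 (59.7% higher), and at 1.5-fold the split was 199 and 100 (66.6% higher) as deposited, 134 and 179 (42.8% higher) after median centring and 158 and 153 (50.8% higher) after quantile normalization.

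**Figure D1:**
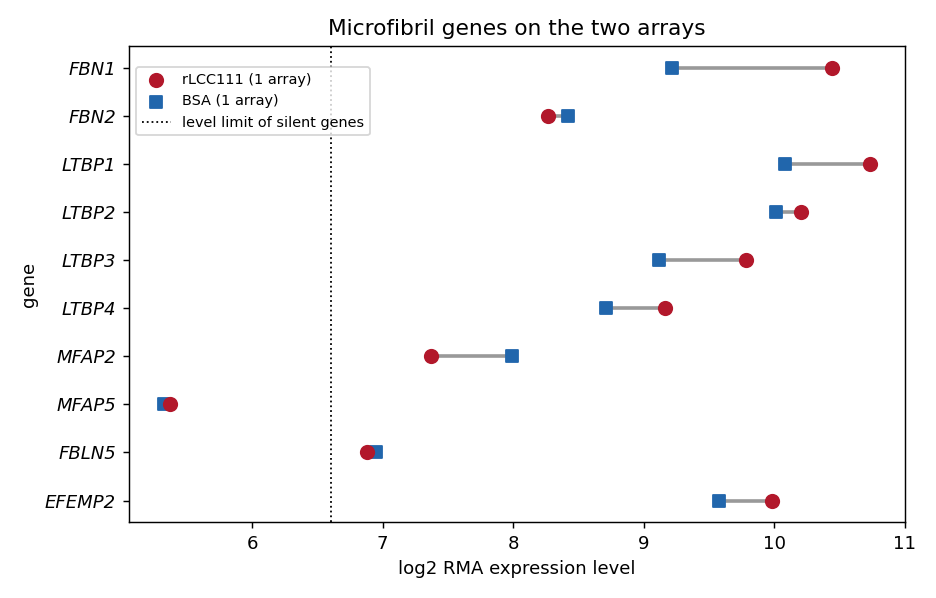
Log2 RMA expression level (horizontal) of each of the 10 microfibril genes on the rLCC111 array (red circles) and the BSA array (blue squares), 1 array per coating, with the limit of 6.61 as a dotted line. The red circle lies farthest to the right of its square for FBN1 (10.45 against 9.21) and farthest to the left for MFAP2 (7.37 against 7.99), and MFAP5 lies left of the dotted line on both arrays.

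Of the fibrillin genes, FBN1 was higher on rLCC111, and the difference of FBN2 lay within the middle 95% of the receptor genes. FBN1, the main fibrillin of adult tissues, was at 10.45 on rLCC111 and 9.21 on BSA, a difference of 1.23 and a fold of 2.35. Both levels were more than 2 log2 units above the limit of dim genes. Its difference had rank 24 of 18417 from the top. FBN2 is the fibrillin best known from development and the gene of congenital contractural arachnodactyly. It was at 8.27 on rLCC111 and 8.42 on BSA, a difference of -0.15 and a fold of 0.900. This difference was smaller than the receptor SD of 0.18, and its sign was not read. That SD comes from mostly dimmer genes and does not measure the error of FBN2. The fold of FBN1 was 2.61 times that of FBN2, although both encode fibrillins of the same domain plan. Without replicates the spread of such a gap is unknown. The third fibrillin gene, FBN3, was at 6.63 on rLCC111 and 6.67 on BSA, barely above the limit, with a difference of -0.03.

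All 4 LTBP genes had a difference above 0, against 46.2% of all genes, with a median of 0.55. The differences of LTBP4, 0.46, and LTBP2 lay within the middle 95% of the receptor genes, and those of LTBP1 and LTBP3 did not. LTBP1, whose protein binds latent TGF-beta and anchors it to fibronectin and fibrillin, was at 10.73 on rLCC111 and 10.08 on BSA, a fold of 1.57. LTBP3, which also binds latent TGF-beta, was at 9.78 on rLCC111 and 9.12 on BSA, a fold of 1.59. These 2 differences, 0.65 and 0.67, were 0.02 apart and lay at ranks 147 and 134 of all genes. LTBP4, which binds latent TGF-beta less readily and takes part in elastic fibre assembly with fibulin-5, was at 9.17 on rLCC111 and 8.71 on BSA, a fold of 1.37. LTBP2, the member of the family that does not bind latent TGF-beta, was at 10.21 on rLCC111 and 10.01 on BSA, a fold of 1.14. LTBP2 thus had the smallest difference of the family, 0.20, close to the SD of the receptor genes, and 10.8% of all genes had a higher one. The difference of LTBP1 exceeded that of LTBP2 by 0.45, and the difference of LTBP3 exceeded it by 0.47, but without replicates the spread of such gaps is unknown.

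Of the glycoproteins that coat microfibrils, MFAP2 was lower on rLCC111 and MFAP5 was dim. MFAP2, which encodes MAGP-1, a small protein bound to fibrillin on most microfibrils, was at 7.37 on rLCC111 and 7.99 on BSA, a difference of -0.62 and a fold of 0.649. It was the only member more than 1.5-fold lower, and its difference had rank 87 of 18417 from the bottom. Between FBN1 and MFAP2, whose products lie in the same filament, the differences were 1.86 apart. MFAP5, which encodes the related MAGP-2, was at 5.37 on rLCC111 and 5.33 on BSA, both below the limit, so that no difference of this gene could be read from these arrays.

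The fibulin genes, whose proteins join tropoelastin to microfibrils, had differences of 0.41 for EFEMP2 and -0.07 for FBLN5. Both lay within the middle 95% of the receptor genes. EFEMP2, which encodes fibulin-4 and brings lysyl oxidase to tropoelastin, was at 9.98 on rLCC111 and 9.58 on BSA, a fold of 1.32, and 2.74% of all genes had a higher difference. FBLN5, which encodes fibulin-5 and binds both tropoelastin and integrins, was at 6.88 on rLCC111 and 6.95 on BSA, a fold of 0.950. Both of its levels were less than 1 log2 unit above the limit of dim genes.

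**Figure D2:**
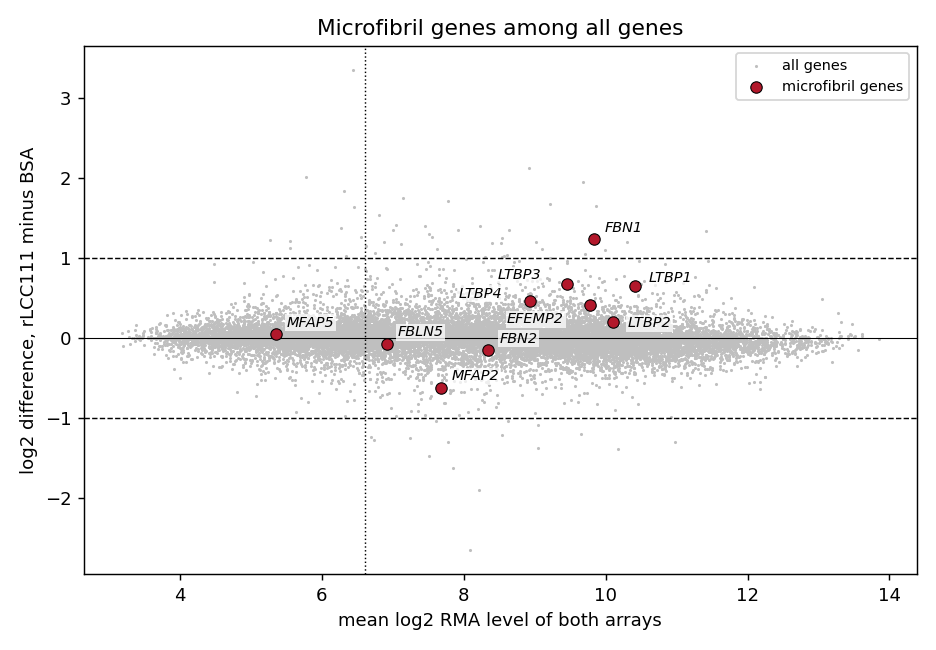
Log2 difference, rLCC111 minus BSA (vertical), against the mean log2 RMA level of both arrays (horizontal) for 18417 genes (grey) and the 10 microfibril genes (red), with 2-fold differences as dashed lines and the limit of 6.61 as a dotted line. FBN1, at 1.23, is the only red point above the upper dashed line, and MFAP2, at -0.62, is the lowest red point. The 4 LTBP genes all lie above 0, as do 46.2% of all genes.

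The promoters of the 4 members at least 1.5-fold different are shown to set the sequences beside these values. They are the 250 bases before the start of transcription in the RefSeq annotation of GRCh38.p14, on the strand of the gene, and where a gene has several starts the most upstream one was taken. Capitals mark exact matches, on either strand, to 5 short motifs: the SMAD box CAGAC, the GC box GGGCGG, the AP-1 site TGAGTCA, the TEAD site GGAATG and the TATA box TATAAA, none of which contains another.
FBN1 (chr15:48644971-48645220, minus strand): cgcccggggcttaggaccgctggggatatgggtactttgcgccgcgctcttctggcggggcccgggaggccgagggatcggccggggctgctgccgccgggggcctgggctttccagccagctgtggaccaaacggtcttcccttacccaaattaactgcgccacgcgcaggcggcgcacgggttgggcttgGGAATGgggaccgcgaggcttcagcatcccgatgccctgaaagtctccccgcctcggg
LTBP1 (chr2:32946703-32946952, plus strand): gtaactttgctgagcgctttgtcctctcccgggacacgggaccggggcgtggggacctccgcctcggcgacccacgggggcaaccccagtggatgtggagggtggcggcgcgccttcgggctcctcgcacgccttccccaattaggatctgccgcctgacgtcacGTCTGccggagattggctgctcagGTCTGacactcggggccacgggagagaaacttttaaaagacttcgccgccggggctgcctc
LTBP3 (chr11:65558360-65558609, minus strand): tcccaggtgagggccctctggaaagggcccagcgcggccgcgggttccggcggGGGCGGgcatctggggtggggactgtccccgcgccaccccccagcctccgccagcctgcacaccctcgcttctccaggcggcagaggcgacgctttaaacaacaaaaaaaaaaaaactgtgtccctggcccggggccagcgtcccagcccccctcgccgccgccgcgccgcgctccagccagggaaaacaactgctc
MFAP2 (chr1:16981584-16981833, minus strand): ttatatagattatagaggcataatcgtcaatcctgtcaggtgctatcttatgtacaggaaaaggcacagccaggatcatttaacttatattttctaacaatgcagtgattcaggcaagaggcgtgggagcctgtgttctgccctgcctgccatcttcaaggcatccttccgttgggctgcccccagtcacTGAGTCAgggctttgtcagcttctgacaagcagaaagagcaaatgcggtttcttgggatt
The FBN1 window held 1 TEAD site and none of the other 4 motifs, the LTBP1 window 2 SMAD boxes, the LTBP3 window 1 GC box and the MFAP2 window 1 AP-1 site, so that no motif was shared by the windows shown of the 3 members at least 1.5-fold higher. The windows of FBN1, LTBP1 and LTBP3 were rich in G and C, at 69.6%, 66.4% and 70.4%, and that of MFAP2 was not, at 46.8%, with a median of 58.0% over all windows. At its other start MFAP2 had a window with 76.4% G and C that held 1 SMAD box and 2 GC boxes, and the other starts of LTBP1 had windows with 45.2% and 47.6%. Over all 35116 windows of this length, 38.0% held the SMAD box, 42.6% the GC box, 4.20% the AP-1 site, 11.9% the TEAD site and 10.7% the TATA box. Of the 15 windows of the members, 7 held the SMAD box, 10 the GC box, 1 the AP-1 site, 2 the TEAD site and 1 the TATA box. Of the 9 members with a window, 5 held the SMAD box and 7 the GC box in at least 1 of their windows. This count per gene is not on the same footing as the shares per window because 5 of the 9 have more than 1 start. These matches are letters found in a window and say nothing of binding in HT1080 cells.

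The choice of scaling moved no member by more than 0.083 log2. FBN1 was at least 2-fold higher under each of the 4 scalings shown, between 1.15 after median centring and 1.25 after removal of a lowess trend. MFAP2 was more than 1.5-fold lower under each, between -0.62 and -0.71. LTBP1 was just short of 1.5-fold after median centring, at 0.57, which leaves 2 members that high. LTBP3, at 0.586, was at the threshold of 0.585 there. The sign turned for MFAP5 alone, to -0.04 after median centring and -0.03 after quantile normalization.

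**Figure D3:**
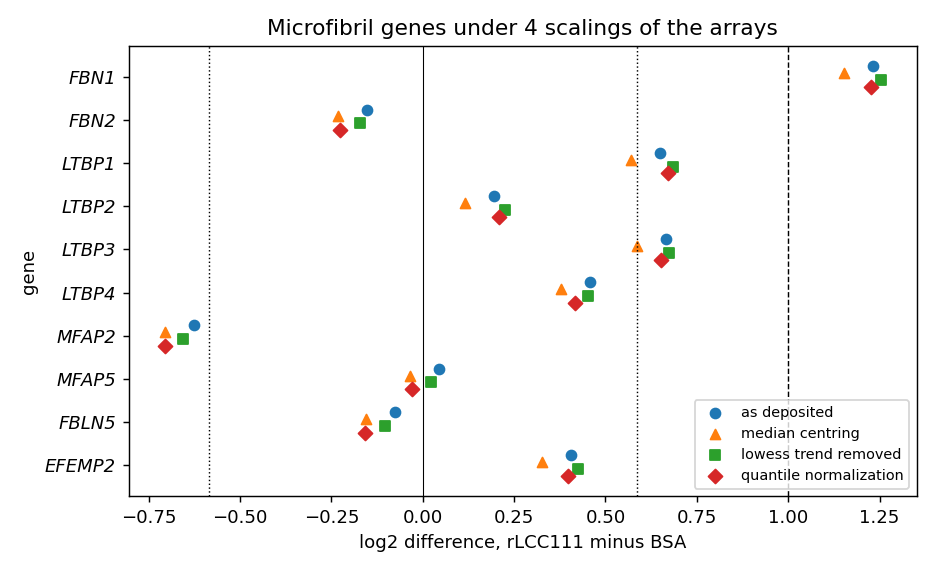
Log2 difference, rLCC111 minus BSA, of the 10 microfibril genes as deposited (circles), after median centring (triangles), after removal of a lowess trend (squares) and after quantile normalization (diamonds), with 2-fold higher as a dashed line and 1.5-fold as dotted lines. The 4 symbols of each gene lie close together, and MFAP5 is the only gene whose symbols fall on both sides of 0.

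Other genes of elastic fibres had small differences. Over 13 further elastic fibre and microfibril genes the median difference was 0.01, 7 were above 0 and 5 below, and none reached 1.5-fold. ELN, the elastin gene itself, which was singled out after its value was seen, was at 7.86 on both arrays. EMILIN1, a glycoprotein between elastin and microfibrils, had the lowest difference of the list, -0.22, and EFEMP1, which encodes fibulin-3, the highest above the limit, 0.10. MFAP4, which binds microfibrils and elastin, had a difference of 0.29 but was dim on both arrays, at 4.88 on rLCC111 and 4.59 on BSA.

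The lysyl oxidases and the listed factors of microfibril processing and assembly were also within 1.5-fold. Proteases that cut fibrillin, elastin or LTBPs form a separate list, given further below. Of 5 lysyl oxidase genes, LOX, the enzyme that fibulin-4 carries, had a fold of 0.820 and LOXL1, the one that fibulin-5 carries, a fold of 1.15, with a median difference of 0.04. LOX was at 10.59 on rLCC111 and 10.88 on BSA, so that EFEMP2 and LOX differed in opposite directions. The difference of EFEMP2, 0.41, lay within the middle 95% of the receptor genes, and that of LOX, -0.29, lay just below it. Of 17 genes of processing and assembly, 10 were above 0 and 6 below, and the median was 0.04. PCSK6, a proprotein convertase, had the highest difference of these, 0.31, and FURIN, which removes the end pieces of profibrillin and was singled out after its value was seen, had 0.29, at 10.71 on rLCC111 and 10.42 on BSA. ADAMTS6, a protease of the family that shapes microfibrils, had the lowest, -0.19.

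The 3 TGF-beta genes, whose products LTBPs hold in latent form, were all higher on rLCC111. A difference above 0 was seen in 7 of the 12 genes of their list and in 46.2% of all genes. TGFB2 was at 11.86 on rLCC111 and 11.24 on BSA, a fold of 1.54, and TGFB3 was at 7.93 on rLCC111 and 7.34 on BSA, a fold of 1.51. TGFB1, singled out after its value was seen, was at 11.43 on rLCC111 and 11.07 on BSA, a fold of 1.29. LTBP1, LTBP3 and LTBP4, whose proteins bind latent TGF-beta to differing degrees, were higher on the same array. LTBP2, whose protein does not bind it, was also higher there, at a fold of 1.14. The 12 genes of the list, with the BMP and GDF ligands that bind fibrillin, had a median of 0.02, since the others lay between -0.09 (LRRC32, a cell surface anchor of latent TGF-beta) and 0.08 (BMP2).

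Integrins that bind the RGD motif of fibrillin or pull TGF-beta free of its latent complex had a median of 0.22 over 8 genes, and 0.41 over the 6 above the limit. ITGB8, whose product activates latent TGF-beta, was at 8.52 on rLCC111 and 7.54 on BSA, a fold of 1.97, just short of 2-fold. ITGB3, part of a fibrillin receptor, was at 10.29 on rLCC111 and 9.60 on BSA, a fold of 1.62. As deposited, 7 of the 8 genes were above 0, against 46.2% of all genes, and none was below 0. ITGA8 was identical on the 2 arrays, and ITGB1, at 0.10, had the lowest difference above the limit. After median centring or quantile normalization the 2 dim genes, ITGA8 among them, were below 0.

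Matrix partners and proteases held the only related genes that were at least 2-fold higher. VCAN, the proteoglycan whose end domain binds fibrillin, was at 10.65 on rLCC111 and 8.70 on BSA, a fold of 3.86, and ranked 4 of all genes. The 6 matrix partners had a median of 0.40, and THBS1, with a fold of 1.23, had the lowest difference of those above the limit. Among 10 proteases that cut fibrillin, elastin or LTBPs, with a median of 0.10, MMP2 was at 12.08 on rLCC111 and 10.75 on BSA, a fold of 2.52. HTRA1, a secreted serine protease with LTBP1 among its substrates in mouse cells, was at 10.54 on rLCC111 and 9.45 on BSA, a fold of 2.13. CTSL had the lowest difference above the limit, -0.09. Over the 71 related genes, 3 were higher by 2-fold or more and 7 by 1.5-fold or more, none was lower by 1.5-fold or more, and the median was 0.05. Over all genes the shares were 0.239% higher by 2-fold, 1.08% higher by 1.5-fold and 0.543% lower by 1.5-fold as deposited, and after median centring more genes were lower by 1.5-fold (179) than higher (134). VCAN and MMP2 were among the changed genes known from these arrays when the lists were drawn up.

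**Figure D4:**
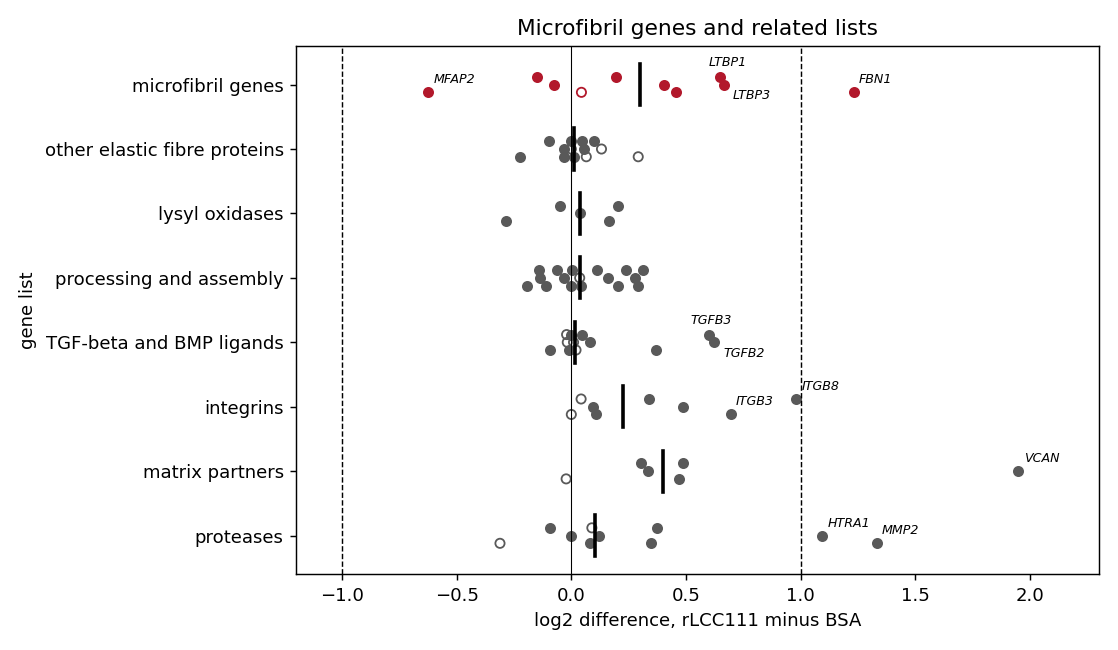
Log2 difference, rLCC111 minus BSA (horizontal), of the 10 microfibril genes (red) and of the 7 related lists (grey), with filled points for genes with a level over 6.61 on the brighter array, open points for the others, bars at the medians and dashed lines at 2-fold. The median bar stands at 0.30 for the microfibril genes, 0.40 for the matrix partners and 0.22 for the integrins. Those of the remaining lists lie between 0.01 (other elastic fibre proteins) and 0.10 (proteases). Names mark the genes at least 1.5-fold different.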

How the data were processed

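Total RNA was hybridized to GeneChip Human Gene 1.0 ST arrays, 1 per coating, and no source used here says how many wells or cultures each RNA came from. The authors turned the scans into log2 levels by RMA, which removes background, equalizes the arrays and combines probes, with Affymetrix Expression Console, and these deposited log2 levels were taken without further scaling. RMA settings, software version and array build are not given in the sources used here. For testing, the methods of the study name limma with a correction for the false discovery rate, which needs replicates and was not run on 1 array against 1, so no p-value is given and the number of arrays limits the precision.

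Sequences were named from the platform annotation, with symbols checked through gene identifiers in the RefSeq table of GRCh38.p14 (19460 with 1 symbol, 1754 with several and not used, 12083 with none). Where several sequences had the same symbol, the one with the highest mean level stood for the gene. Counts used log2 differences of at least 1 (2-fold) or 0.585 (1.5-fold). The members, the related lists and the motifs were chosen with earlier results of these data known. Named genes were all members and, in each related list, genes at least 1.5-fold different above the level limit, or else the highest and the lowest; others are marked where they stand, and FBN3, MFAP4, ITGA8 and the markers were named outside this rule. Alternatives tried were quantile normalization, median centring, a lowess trend subtracted (span 0.2, 3 iterations), the mean over a gene's sequences, and filters on dim genes. The counting was tested on simulated data. Protein sequences were not analysed here. Python 3.11.15, numpy 2.4.6, pandas 2.3.3, statsmodels 0.14.6 and matplotlib 3.10.9 were used.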

Additional observations from a re-analysis of the deposited data

How the results depend on the processing

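A value was taken as moved when it shifted by more than 0.18, the SD of the differences of the receptor genes, or a count when it changed by more than 1.5 times. The differences of all 10 members, their median and their counts stayed within these bounds under every alternative run, and no difference of at least 2-fold changed sign. Of 136 comparisons of a result with an alternative, 129 stayed within the bounds and 7 did not. After median centring the genes at least 2-fold lower numbered 25 in place of 16, those at least 1.5-fold lower 179 in place of 100, and those above 0 numbered 4855 in place of 8504. After quantile normalization 153 genes were at least 1.5-fold lower. With both arrays above the level limit, 26 genes were at least 2-fold higher in place of 44. The median of the integrins was 0.41 with the brighter array above the limit and 0.41 with both above it, in place of 0.22, because the 2 dim genes left out lay near 0. The mean over sequences changed no member, since each has 1 sequence, and no sequence with several symbols carries a member. No paired analysis was possible because each coating has 1 array. The level limit bounds what can be read for MFAP5 and FBLN5.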
